A study of Homo sapiens with 4 samples.

Results

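FAU and SNHG8 were examined in K562 cells, a human erythroleukemia cell line, after treatment with AC-1041, a thalidomide analog that binds lipid droplets. Genes of the cytosolic ribosomal proteins were sought among the gene probes of the arrays by the names that the files give. A name had to start with RPL or RPS followed by a digit, or be RPSA, RPLP0, RPLP1, RPLP2 or FAU, with kinases of the RPS6K family and pseudogenes left out. Of the 14272 gene names in the files, carried by 14297 gene probes, 1 matched, that of FAU. All other cytosolic ribosomal protein genes were not analysed here, so nothing that follows describes the family as a whole. SNHG8, a host gene of a small nucleolar RNA, was set beside it, also with 1 probe.

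Every array carried RNA of treated and of control cells together, one in Cy5 and the other in Cy3, and so gave a ratio of the treated to the control level. On arrays 1 and 2 Cy5 marked the treated RNA, and on arrays 3 and 4 Cy3 did. Cells were treated for 4 h. The labels give no dose and call the control cells untreated, while the methods of the study state a dose, not printed here, and name a DMSO control. The methods state that quadruplicate samples of treated and of control cells were taken, but neither they nor the labels say that these were separate cultures, so the p-values measure the spread between these arrays, which may be technical.

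Detection and marked spots differed between the arrays. Probes well above background in the treated channel numbered from 6737 to 7403 on arrays 1 and 2 and from 8982 to 9416 on arrays 3 and 4. Marked spots made up 8.08% of gene probes on array 1 and from 1.57% to 2.33% on the others. Over all probes the log2 ratios of arrays 1 and 2 correlated at 0.81, those of arrays 3 and 4 at 0.94, and those of arrays that differ in orientation at -0.29 to -0.12. Which dye was used and how good the arrays were cannot be told apart. Of 11 erythroid marker genes with a probe, 10 were well above background in all 8 channels. Of the markers of other lineages, EPCAM was so as well, CD3E was in 2 treated and 2 control channels, and ALB and MLANA were in none.

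The ribosome makes protein from mRNA, and its small and large subunits are built in the nucleolus from ribosomal RNA and many ribosomal proteins. FAU encodes the small subunit protein eS30 fused to a ubiquitin-like protein, which is cut off after translation. SNHG8 is transcribed as a long noncoding RNA and spliced, and an intron of it holds a small nucleolar RNA (snoRNA), a guide for the modification of ribosomal RNA. Messengers of ribosomal proteins, of several translation factors and of many snoRNA hosts begin with a 5' terminal oligopyrimidine (5'TOP) tract, an unbroken run of C and T in the gene starting with C. The mTORC1 kinase and the RNA-binding protein LARP1 control the translation and stability of 5'TOP messengers.

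The probes that carry all values of these genes are shown because each gene rests on a single sequence. The FAU probe (RefSeq transcript NM_001997) is placed on chromosome 11 of hg18 from 64645634 to 64645692 and the SNHG8 probe on chromosome 4 of hg18 from 119419946 to 119420005. Both were read 5' to 3' from the files, have 60 bases and are printed in lower case.
FAU probe: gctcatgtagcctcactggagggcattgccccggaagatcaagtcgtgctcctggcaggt
SNHG8 probe: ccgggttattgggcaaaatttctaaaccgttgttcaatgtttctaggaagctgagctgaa
The FAU probe had 60% G and C, with stop codons numbering 0, 1 and 0 in its 3 reading frames. The SNHG8 probe had 41.7% G and C, with a stop codon in each of the 3 frames. An annotation of hg18 was not used here, so the exon under each probe is not given.

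The annotated gene starts are shown because SNHG8 was set beside FAU as a gene with a start of the 5'TOP kind. They are windows of 30 bases from RefSeq on GRCh38.p14, with 15 bases before the start and 15 from it onward, and the longest run of C and T is in capitals.
FAU start (chr11:65122120-65122149, minus strand): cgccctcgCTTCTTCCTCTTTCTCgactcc
SNHG8 start (chr4:118278747-118278776, plus strand): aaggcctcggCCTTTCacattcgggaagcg
At FAU the run had 16 bases and began 7 bases before the annotated start, which itself was a C followed by at least 4 more pyrimidines. At SNHG8 the longest run had 6 bases and began 5 bases before the annotated start. It ended at that start, a C with no pyrimidine next to it downstream, so the strict form was not there. Counted on the strand of the gene, a run of 8 or more C or T within 20 bases of the start was held by 17.8% of 35116 RefSeq starts and by 75.9% of the starts of 87 cytosolic ribosomal protein genes. The strict form, a C at the start followed by at least 4 pyrimidines, was held by 4.07% and 56.3% of them. Among 33 starts of snoRNA host genes, the class of SNHG8, 30.3% held such a run and 27.3% the strict form. These are letters in a window around an annotated start, and say nothing of which start K562 cells used.

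SNHG8 was lower in treated cells. The normalized log2 intensity in treated cells was 11.25, 10.92, 11.02 and 10.78 on arrays 1 to 4, and in control cells it was 12.27, 12.66, 12.06 and 12.16. The highest treated level lay below the lowest control level, so the groups did not overlap, as was the case in this direction for 2.21% of the 8852 probes tested. The log2 ratios of treated to control were -1.02, -1.73, -1.05 and -1.38 in the same order, and array 2 stood lowest. A ratio in bulk RNA cannot tell less RNA per cell from fewer cells that make it.

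The mean log2 ratio of SNHG8 was -1.30 ± 0.33 (SD, n = 4 arrays), with a limma standard error of 0.115 and a 95% interval from -1.56 to -1.03. The control level was 2.45-fold that of treated cells. The limma adjusted p (Benjamini-Hochberg over all 8852 probes tested) was 0.00011, and at the threshold of 0.05 used for every call 13% of these probes were lower. A ratio below 0 on all 4 arrays was found for 8.29% of the probes, and for 6.13% it was also called. The ratio of SNHG8 was the fourth lowest among the probes tested (rank 4 of 8852). In the exact sign-flip permutation test over 4 arrays (two-sided) p was 0.125, the smallest that 4 arrays can give.

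The fall of SNHG8 had the same direction in both dye orientations. Its mean log2 ratio was -1.38 on the arrays where Cy5 marked the treated RNA and -1.21 on the others, a difference of -0.16, and the dye term was not past the threshold (limma adjusted p = 0.568). Its probe stood well above background in all 8 channels, and none of its spots was marked as an outlier. The scanned signals of its spots were 2503, 2450, 2226 and 1794 in the treated channel of arrays 1 to 4, against 4871, 5223, 4070 and 4582 in the control channel, before any normalization.

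**Figure D1:**
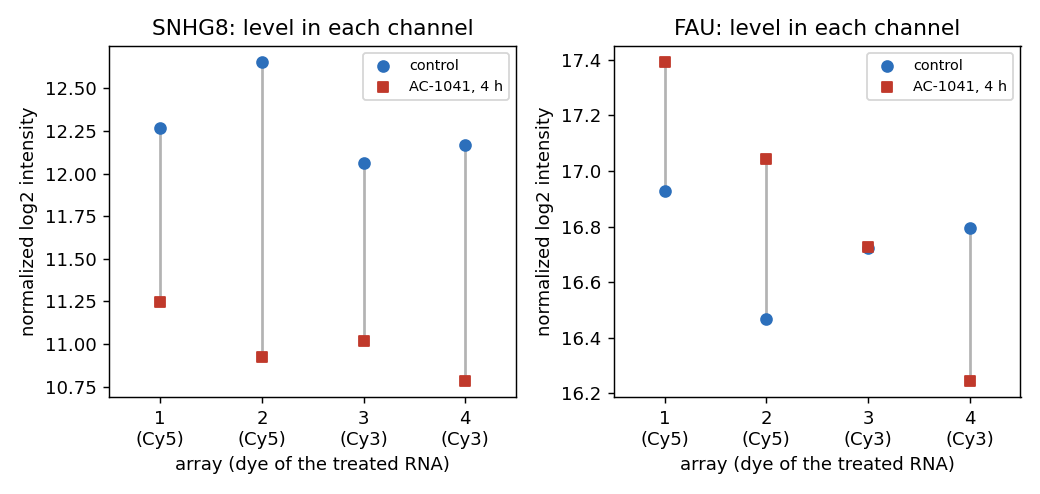
Normalized log2 intensity of SNHG8 and FAU (vertical axes, with different ranges) in treated (red squares) and control (blue circles) RNA on each of 4 arrays (horizontal axis, with the dye of the treated RNA), where a grey line joins the channels of an array. SNHG8 was lower in treated RNA on each array, while FAU was higher on arrays 1 and 2, nearly equal on array 3 and lower on array 4.

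FAU, the ribosomal protein gene, did not pass the test in either direction. Its normalized log2 intensity in treated cells was 17.39, 17.04, 16.73 and 16.24 on arrays 1 to 4, and in control cells it was 16.93, 16.47, 16.72 and 16.80. The groups overlapped. The log2 ratios were 0.47, 0.58, 0.0034 and -0.55, so that arrays 1 and 2 lay above 0, array 3 near it and array 4 below it.

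The mean log2 ratio of FAU was 0.12 ± 0.51 (SD, n = 4 arrays), with a limma standard error of 0.094 and an adjusted p of 0.334. Its 95% interval in this fit ran from -0.09 to 0.34. In a fit without the dye term, where any gap between the dye orientations adds to the error, the interval ran from -0.41 to 0.66 (limma adjusted p = 0.873). For comparison, 37.4% of the probes tested were called, 24.3% higher (2155) and 13% lower (1152), numbers that became 2364 and 596 with median centring in place of loess. The exact sign-flip permutation p over the 4 arrays (two-sided) was 0.625.

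The ratio of FAU moved with the dye. Its mean was 0.52 on arrays 1 and 2 but -0.27 on arrays 3 and 4, a difference of 0.80 on the log2 scale (limma adjusted p = 0.0068 for the dye term). Its scanned signals were 222016 and 188772 in the treated channel of arrays 1 and 2 (Cy5), and 78750 and 52390 in that of arrays 3 and 4 (Cy3). In the control channel they were 96604 and 64813 (Cy3), and 149141 and 168603 (Cy5), so the Cy5 signal was the higher one on every array. The spot was among the brightest, at rank 54 of 8852 by mean intensity, which is a property of the spot and not a measure of how abundant the transcript is.

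The same dye pattern was frequent among bright spots. Of the 100 brightest probes tested, 91 had a ratio above 0 with the treated RNA in Cy5 and below 0 with it in Cy3, against 31.3% of all probes tested. Their median log2 ratio was 0.88 in the former orientation and -0.60 in the latter. The part of the dye in the array values of FAU was not tested beyond the dye term. With median centring in place of loess, FAU had log2 ratios of 1.19, 1.16, -0.91 and -1.62 on arrays 1 to 4 and a mean of -0.046, and SNHG8 had -0.97, -1.48, -0.87 and -1.31. With the processed signals of Feature Extraction, which are dye-normalized in another way, FAU had -0.44, 0.25, 0.32 and -0.27, and its arrays were not split by the dye.

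**Figure D2:**
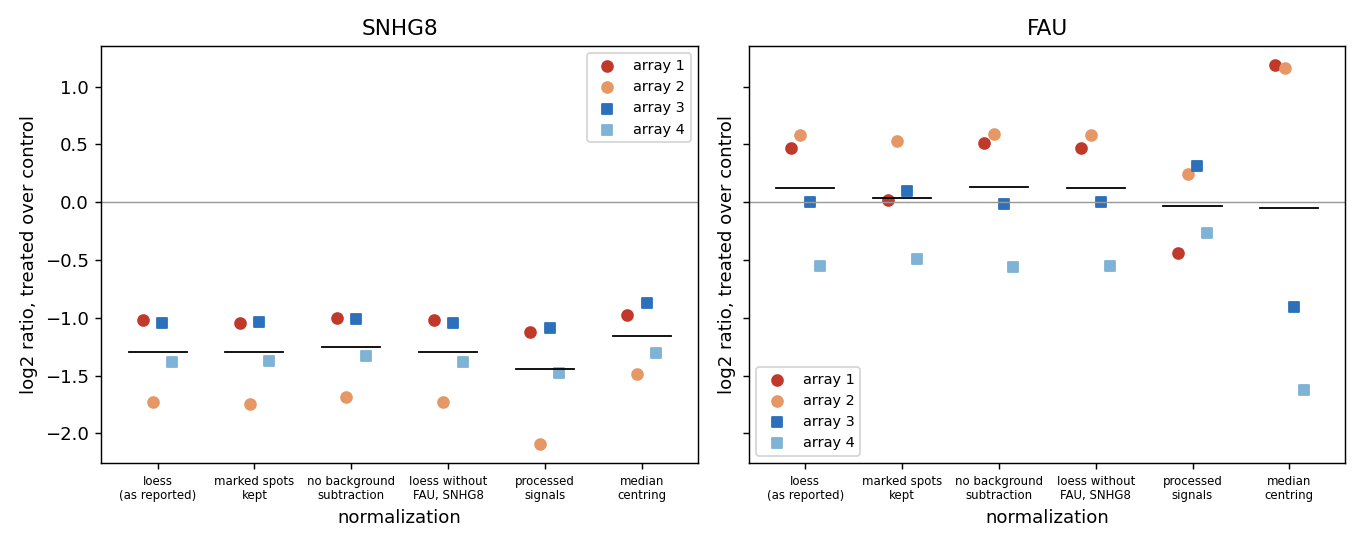
Log2 ratio of treated to control (vertical axis) of SNHG8 and FAU on each array under 6 ways of normalizing the arrays (horizontal axis), with circles for the treated RNA in Cy5, squares for Cy3 and a line at the mean of the 4 arrays. SNHG8 stayed below 0 on every array in all 6, while the arrays of FAU lay on both sides of 0 in each and spread from -1.62 to 1.19 with median centring.

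Of the genes that host snoRNAs, a list of 44 names, 7 had a probe and all 7 were tested, SNHG8 included. Of them 2 were called higher (28.6%, against 24.3% of all probes) and 3 lower (42.9%, against 13%) in treated cells, shares that rest on 7 genes, and the median log2 ratio was 0.16, against 0.017 over all probes tested. SNHG8 was the only one of the 7 measured with the same sign on all 4 arrays, since SNHG1, above 0 on 3, had a marked spot on array 1. GAS5, which hosts several snoRNAs, had log2 ratios of 0.52, 0.16, -0.01 and 0.51 (mean 0.30 ± 0.26 SD, n = 4, limma adjusted p = 0.048). SNHG1, another host of several snoRNAs, was measured on arrays 2, 3 and 4, with 0.99, 0.07 and 0.30 (SD 0.48, n = 3). Its fitted log2 ratio was 0.58 (limma adjusted p = 0.0022). The fit takes its error from arrays 3 and 4, so this p-value does not measure the gap between them and array 2.

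The other hosts moved with the dye or were not called. SNHG10 had log2 ratios of -2.12 and -2.44 on arrays 1 and 2 but 1.39 and 1.11 on arrays 3 and 4, and was called lower at a mean of -0.52 (limma adjusted p = 0.0018). SNHG7 had -0.61 and -0.52, then 0.02 and 0.25, with a mean of -0.21 (adjusted p = 0.042). SNHG5 (0.16, limma adjusted p = 0.399) and RABGGTB (0.22, limma adjusted p = 0.067) were not past the threshold. Without the dye term 1 of the 7, SNHG8, was called, and the 5 called hosts became 3 in number without array 1 or array 3 and 2 without array 4.

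**Figure D3:**
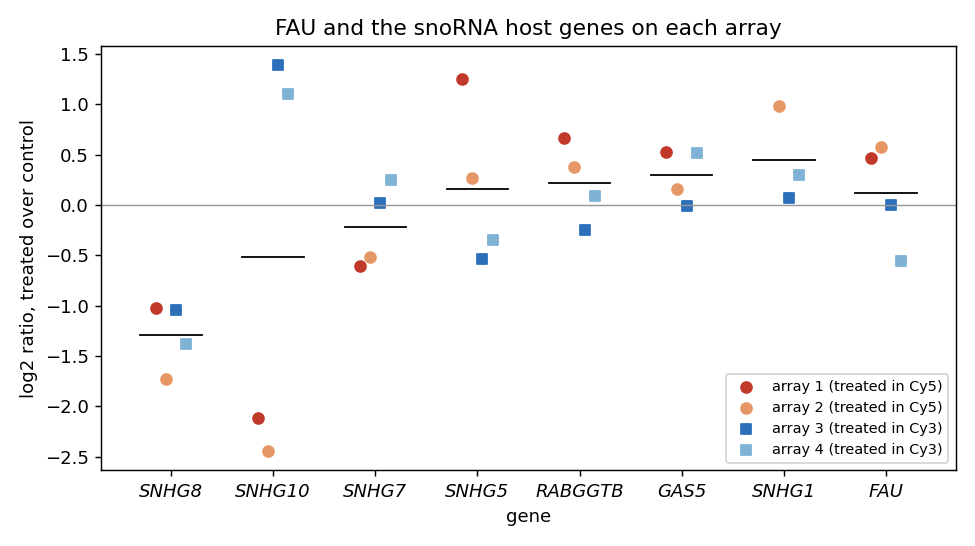
Log2 ratio of treated to control (vertical axis) for the 7 snoRNA host genes with a tested probe and for FAU (horizontal axis), with 1 point for each array, circles for the treated RNA in Cy5, squares for Cy3, and a line at the mean over the arrays that measured the gene. SNHG8 lies below 0 on all 4 arrays, SNHG1 lies above 0 on the 3 that measured it, the others have arrays on both sides of 0, and SNHG10 has the widest gap between the dye orientations.

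Other genes whose messengers are commonly listed as 5'TOP were set beside FAU and SNHG8. Of 30 names 28 had a probe and 26 were tested. Of these 4 were called higher (15.4%, against 24.3% of all probes) and 3 lower (11.5%, against 13%), and 19 were not past the threshold. The number called was 0 without array 3, without array 4 or without the dye term, and 2 with median centring. The median log2 ratio was 0.080, against 0.017 over all probes tested, and the values ran from -0.31 to 0.34. At -1.30 SNHG8 had rank 4 of 8852 from the lowest, so nearly all probes lay above it, in this list or not. In 17 of the 26 (65.4%, against 31.3% of all probes) the ratio was above 0 with the treated RNA in Cy5 and below 0 with it in Cy3. The spot on array 1 was marked as an outlier, and left out, for 10 of the 26. This held for 821 of all 8852 probes tested and for 32 of the 100 brightest.

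EEF1A1, which brings aminoacyl-tRNA to the ribosome, had log2 ratios of 1.30, 1.80, -1.33 and -1.46, with a mean of 0.077 (limma adjusted p = 0.530). It was named after its values were seen. TMEM66, with a marked spot on array 1, was called higher, at 0.39, 0.13 and 0.44 on arrays 2, 3 and 4. Its fitted log2 ratio was 0.34 (limma adjusted p = 0.029), and it too was named after its values were seen. As for SNHG1, the error comes from arrays 3 and 4, so this p-value does not measure the gap to array 2. PABPC4, a poly(A)-binding protein, was the only gene of the list called with the same direction on all 4 arrays. The log2 ratios of PABPC4 were -0.27, -0.25, -0.32 and -0.13. Its mean was -0.24 ± 0.08 (SD, n = 4, limma adjusted p = 0.024), and it was not past the threshold under median centring (adjusted p = 0.176) or without the dye term (adjusted p = 0.401), nor without array 3 or array 4 (adjusted p = 0.194 and 0.090).

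**Figure D4:**
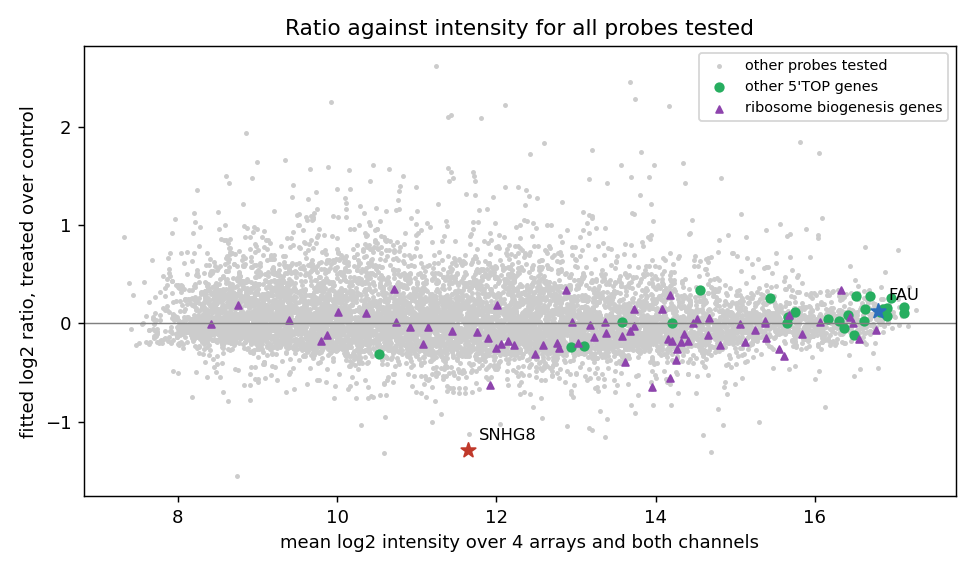
Fitted log2 ratio of treated to control (vertical axis) against mean log2 intensity (horizontal axis) for the 8852 probes tested, with FAU and SNHG8 as stars, other 5'TOP genes as green circles and ribosome biogenesis genes as purple triangles. SNHG8 lies near the lower edge at a middling intensity, and FAU lies near 0 at the bright end with many of the other 5'TOP genes.

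Genes that build ribosomes were set beside FAU as the nucleolar side of the same pathway. Of 91 names 70 had a probe and 69 were tested, of which 4 were called higher (5.8%, against 24.3% of all probes) and 13 lower (18.8%, against 13%), with a median log2 ratio of -0.10. These 17 calls became 6 in number without array 3 and 5 without array 4. RRS1, a factor of large subunit assembly, had log2 ratios of -0.81, -1.05, -0.46 and -0.27, with a mean of -0.65 ± 0.35 (SD, n = 4, limma adjusted p = 0.00031). POLR1C, a subunit of RNA polymerases I and III, had -0.20, -0.36, -0.76 and -0.90, with a mean of -0.56 ± 0.33 (SD, limma adjusted p = 0.00046). NOC2L, a nucleolar protein, had a mean of -0.63 ± 0.35 (SD) and BYSL, a factor of small subunit assembly, one of -0.39 ± 0.07 (SD), with limma adjusted p-values of 0.0023 and 0.0020. All 4 were below 0 on each array, and none was past the threshold without the dye term, where the adjusted p ranged from 0.157 to 0.197.

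The mTORC1 pathway and the proteins that bind 5'TOP messengers were measured through 27 of 39 names. Of these 7 were called higher (25.9%, against 24.3% of all probes) and 3 lower (11.1%, against 13%), and the 10 calls became 4 in number without array 4. SESN2, a sestrin that restrains mTORC1, had log2 ratios of 0.97, 1.91, 0.79 and 0.98, with a mean of 1.16 ± 0.51 (SD, n = 4, limma adjusted p = 0.00034). SESN1, another sestrin, had a mean of 0.60 ± 0.22 (SD, limma adjusted p = 0.00041), and RRAGC, a GTPase that recruits mTORC1 to lysosomes, one of 0.71 ± 0.42 (SD, limma adjusted p = 0.0037). The probes of RRAGD, a close relative of RRAGC, and of LARP4 passed the filter through the treated channel alone, on 2 arrays each, with the control channel well above background on none for RRAGD and on 1 for LARP4. Their calls are therefore not read as results, and without them 5 genes of the list were called higher. LARP1 was not past the threshold, at 0.07 ± 0.33 (SD, n = 4, limma adjusted p = 0.601), and neither was MTOR, at 0.044 (limma adjusted p = 0.645), both of them named after their values were seen. Without the dye term SESN2, SESN1 and RRAGC were not past the threshold, at adjusted p-values from 0.079 to 0.164, nor was RRAGC without array 4 (limma adjusted p = 0.0503).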

How the data were processed

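RNA of treated and control K562 cells was hybridised on 4 two-colour Agilent arrays. The authors quantified the scans with Agilent Feature Extraction 9.5.1.1 and deposited, for both channels, raw intensity and local background, the processed intensity, and the log10 of Cy5 over Cy3. Their own p-value per spot was not used. The deposited series table holds log10 ratios too, and from 99.9% to 100% of its values lay within 0.001 of those of the arrays once the sign of arrays 3 and 4 was turned, which makes it a ratio of treated to control.

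Background was corrected with normexp (offset 50). Each array was normalized by loess (span 0.3) with control and marked spots at weight 0, and marked spots were left out afterwards. The filter asked for a signal well above background in 1 or both channels of 2 or more arrays. Ratios were tested in R 4.3.3 by limma 3.58.1 (terms for treatment and dye, Benjamini-Hochberg adjustment). Standard errors thus rest on the spread within a dye orientation, and each SD on all arrays. The limma step was tested on simulated data. The arrays limit the precision by their number.

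The accession in the files and the RefSeq table of GRCh38.p14 named 12002 of 14297 probes. For genes with several probes the brightest was taken. Genes named beside FAU and SNHG8 are, for each list, up to 4 called genes with the largest absolute log2 ratio and the same direction on all arrays. The other snoRNA hosts, GAS5 and SNHG1 included, and a few genes so marked in the text were named after their values were seen. Some results are not reported here. The members and lists were chosen with earlier results of these data known. Alternatives were no background subtraction, median centring, loess without FAU and SNHG8, processed signals, the series table, a looser and a stricter filter on dim probes, marked spots kept, no dye term, an intensity-dependent prior, a stricter threshold, the mean over the probes of a gene, and each array left out.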

Additional observations from a re-analysis of the deposited data

Results flagged for a closer look

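SESN2 stood out by a single array. Array 2 gave a log2 ratio of 1.91, where arrays 1, 3 and 4 gave 0.97, 0.79 and 0.98. This gap made up 0.836 of the spread from lowest to highest value, which is past Dixon's 95% critical value. It was 1 of 11 genes examined for such a gap, and about 1 in 20 would be past it by chance. With array 2 left out the log2 ratio of SESN2 was 0.93. That fit takes its error from arrays 3 and 4 alone, so only the size is given.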

How the results depend on the processing

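SNHG8 was lower and past the threshold in all 16 alternatives run, with log2 ratios from -1.47 to -1.12 and limma adjusted p-values up to 0.044, the last in the fit without the dye term, where 4 of 8937 probes were called lower. Without each array in turn its log2 ratio ranged from -1.47 to -1.12.

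FAU was called in none of them (limma adjusted p from 0.121 to 0.928), and its sign was not stable. Its log2 ratio became -0.046 with median centring, -0.035 with the processed signals and -0.035 with the series table. When single arrays were left out, it ranged from -0.015 (without array 3) to 0.26 (without array 4).

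The number of called 5'TOP genes, 7 in all, was 2 with median centring, 3 with the processed signals, 3 with the series table, 0 without the dye term and 0 at an adjusted p under 0.01. Of 5 called snoRNA hosts, the number was 3 with median centring, 3 with marked spots kept, 3 with an intensity-dependent prior, 3 at an adjusted p under 0.01 and 1 without the dye term. Of 17 called ribosome biogenesis genes, it was 6 at an adjusted p under 0.01 and 0 without the dye term, and of 10 called genes of the mTORC1 list it was 0 without the dye term. Without the dye term any gap between the orientations adds to the error. For the other settings the cause was not tested.

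With single arrays left out, the called 5'TOP genes ranged from 0 to 10, the snoRNA hosts from 2 to 6, the ribosome biogenesis genes from 5 to 24 and the mTORC1 genes from 4 to 12. A fit without an array takes its error from the other dye orientation alone. The lowest counts came without array 4, those of 5'TOP genes also without array 3. Every ratio was taken within an array that holds both groups, so each fit is itself paired by array. Over all probes, 2155 were called higher and 1152 lower, against 52 and 4 without the dye term, 2364 and 596 with median centring, 1353 and 468 at an adjusted p under 0.01, and 1342 and 1073 for probes well above background in all 8 channels. With single arrays left out the number higher ranged from 1008 to 2590 and the number lower from 283 to 1469. Arrays 1 and 2 had the wider background, which limits what dim genes can show.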

Other observations

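A few probes carry a description of likeness to a ribosomal protein without being named as one, and were looked up after the files were seen. LOC388524, described as similar to the laminin receptor (RPSA), had log2 ratios of 0.10, 0.05 and -0.16 on arrays 2, 3 and 4, with a fitted value of 0.021 (limma adjusted p = 0.871). LOC441743, described as similar to RPL23A, had 1.64, -1.55 and -1.57 on the same arrays, with a fitted value of 0.041 (limma adjusted p = 0.728), so its sign turned with the dye. LOC649839, described as similar to large subunit protein L36a, was measured on arrays 2 and 4 alone, at 0.92 and -0.46, and could not be tested. Whether these probes also bind the messengers of the ribosomal proteins they resemble was not tested.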
